A study of Homo sapiens with 6 samples.

Results

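The 10 genes described here are tetraspanins, CD82 together with CD9, CD63, CD81, CD151, TSPAN3, TSPAN4, TSPAN5, TSPAN9 and TSPAN14, found by gene symbol among the 60780 rows of the deposited table. The set was chosen by family name, with the log2 fold changes of the same comparison between media already known, so differences between groups are given as a description. The calls that these genes received in the fits across all genes are counted, in the main fits and in the alternatives, and are not read as tests of them. RNA-seq was carried out on the established human hepatic stellate cell (HSC) line LX-2 after 24 h in conditioned medium (CM) from HCT116, an established line of human colorectal carcinoma. In the Vector-CM group (n = 3) the medium came from HCT116Vector cells, which carry the empty lentiviral vector, and in the FGFBP1-CM group (n = 3) it came from HCT116FGFBP1 cells, which overexpress FGFBP1, a secreted protein that frees fibroblast growth factors from the matrix. The labels name no transgene in the LX-2 cells themselves, and each medium was made from a single engineered tumor cell line, so a difference between groups cannot be told apart from a difference between those lines. The comparison asked what tumor cell–derived FGFBP1 does to gene expression in stellate cells, and the labels do not say whether the 3 libraries of a group came from separate cultures.

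Tetraspanins are small proteins that cross the membrane at 4 points and gather integrins, immunoglobulin-superfamily proteins, proteases and growth factor receptors into membrane microdomains. CD82, also known as KAI1, was identified as a suppressor of metastasis and restrains integrin and receptor signaling. CD9, CD63 and CD81 are the usual protein markers of extracellular vesicles, CD151 holds the laminin-binding integrins, and the TspanC8 members, among them TSPAN5 and TSPAN14, carry the sheddase ADAM10 out of the endoplasmic reticulum. In the liver, stellate cells use integrins to hold the matrix they deposit, and they release and take up extracellular vesicles.

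The sequences upstream of 3 of these genes are shown because they are the members with the lowest log2 fold changes (CD82 and CD9) and a well expressed relative whose level hardly differed (TSPAN5). They are RefSeq promoter sequence (GRCh38.p14), 5′ to 3′ on the strand of the gene, cut where the first annotated exon base begins. Capitals mark the GC box letters GGGCGG and the EGR1 letters GCGNGGGCG on either strand, which overlap each other in places, and EGR1 was searched because the study placed it downstream of FGF signaling. The CD82 stretch is chr11:44565413-44565590 (+), which lies within the span of the gene because other transcripts start further upstream, the CD9 stretch is chr12:6200150-6200315 (+), also within the span, and the TSPAN5 stretch is chr4:98658630-98658861 (−).
CD82: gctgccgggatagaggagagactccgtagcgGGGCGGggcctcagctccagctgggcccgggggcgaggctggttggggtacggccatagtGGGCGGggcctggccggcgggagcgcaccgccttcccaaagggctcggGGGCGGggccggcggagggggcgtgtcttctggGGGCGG
CD9: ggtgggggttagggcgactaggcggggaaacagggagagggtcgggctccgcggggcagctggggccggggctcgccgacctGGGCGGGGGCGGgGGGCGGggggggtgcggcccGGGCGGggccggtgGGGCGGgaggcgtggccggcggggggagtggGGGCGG
TSPAN5: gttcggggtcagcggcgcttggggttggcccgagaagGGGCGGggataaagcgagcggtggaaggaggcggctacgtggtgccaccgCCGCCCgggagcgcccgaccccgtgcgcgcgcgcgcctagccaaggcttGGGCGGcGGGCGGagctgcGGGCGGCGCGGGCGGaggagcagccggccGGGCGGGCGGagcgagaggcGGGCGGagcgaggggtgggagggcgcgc

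These stretches held 4 GC boxes in CD82, 6 in CD9 and 9 in TSPAN5. CD82 and TSPAN5 had a single entry in the promoter table, whereas CD9 had 4, of which the printed one held the most GC boxes and the others held 0, 2 and 0, with no EGR1 letters. The EGR1 letters were absent from the CD82 stretch and occurred 1 time each in CD9 and TSPAN5. Among 35116 RefSeq promoter windows of 250 bases, 42.6% held a GC box and 8.41% the EGR1 letters. The AP-1 letters TGANTCA (6.57% of windows) and the TATA letters TATAAA (10.7%) were in none of the printed stretches. Of the 10 genes, 6 had an entry in the promoter table, and CD81, CD151, TSPAN3 and TSPAN9 did not. A match is a description of letters only.

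Library depth ranged from 14003780 to 18508113 counts. A first principal component with 49.5% of the variance set FGFBP1-CM replicate 1 apart, at 33.5 against 3.70 and 4.95 for the other FGFBP1-CM libraries and −15.7 to −11.4 for Vector-CM. Stellate markers fitted the label in part. Of 12 fixed markers, 10 were well enough detected to test, with VIM and COL1A1 among the most abundant, while the retinol-storing enzyme LRAT had 0 counts in every library and DES had at most 4. The summed level of the 12 markers was 3181 to 3378 CPM in Vector-CM and 2544 to 2960 CPM in FGFBP1-CM. Of the 10 tested markers, 9 were below 0 in log2 fold change, against 49.3% of all tested genes. In edgeR 1 of them (TIMP1) was called lower, where 0.0658% of all tested genes were. DESeq2 called 3 lower (LOX, TIMP1 and VIM), where it called 1.57% of genes lower. The 10 epithelial markers, which would show carried-over HCT116 cells, summed to 2.31 to 3.50 CPM in Vector-CM and 2.00 to 2.81 CPM in FGFBP1-CM, with EPCAM at 12 counts or fewer. The 10 hepatocyte markers summed to 40.7 to 43.9 CPM in Vector-CM and 18.1 to 28.0 CPM in FGFBP1-CM, most of it SERPINA1, and 4 of the 6 tested (ALB, APOB, AFP and FGA) were lower in FGFBP1-CM in the edgeR test, where 0.0658% of all tested genes were called lower, while DESeq2 called SERPINA1 alone among the 6. The 6 leukocyte markers summed to 7.23 to 8.09 CPM and 6.12 to 8.60 CPM. The labels name LX-2 as the only cells sequenced, so these sums are read as levels of marker RNA. In bulk RNA, fewer expressing cells and less RNA per cell cannot be told apart.

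CD82 was the tetraspanin whose level differed most among the 10. CD82 (ENSG00000085117, GENCODE 29, GRCh38, chromosome 11, 44564427 to 44620363, plus strand, 16 exon blocks) was at 117, 126 and 121 CPM in Vector-CM replicates 1 to 3 and at 82.9, 94.5 and 91.3 CPM in FGFBP1-CM replicates 1 to 3, where CPM is the read count scaled by the library total after TMM adjustment. These rest on 2097, 1735 and 1799 counts against 1572, 1505 and 1493. Every FGFBP1-CM library was below every Vector-CM library, and the lowest was FGFBP1-CM replicate 1. Means were 121 ± 4.22 CPM for Vector-CM and 89.6 ± 5.96 CPM for FGFBP1-CM (SD, n = 3 each), a log2 fold change of −0.44 (SE 0.0684), or 26.2% lower. Without FGFBP1-CM replicate 1 the log2 fold change of CD82 was −0.38. Hepatocyte marker levels were lower in the same libraries, and their part in the CD82 difference was not tested. An antisense gene, AC010768.1, shares 280 bases of the CD82 exons, and whether counting used strand was not stated.

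**Figure D1:**
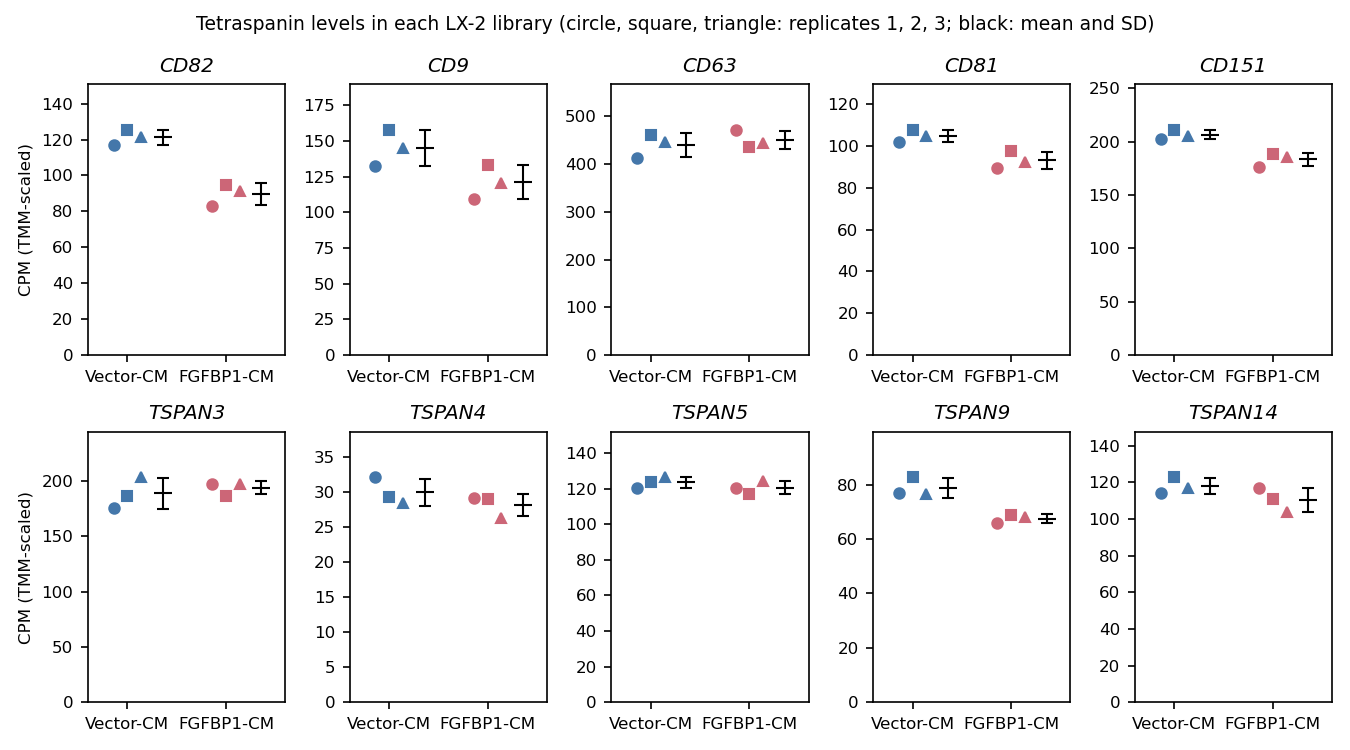
Level of each of the 10 tetraspanins in CPM (y axis, from 0) in the 3 Vector-CM and 3 FGFBP1-CM libraries, with symbols for replicates 1 to 3 and black bars for mean and SD. The FGFBP1-CM points of CD82 (82.9 to 94.5 CPM) lie wholly below its Vector-CM points (117 to 126 CPM), CD81, CD151 and TSPAN9 are separated by smaller gaps, and the other 6 overlap.

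CD82 was also set against other tetraspanins in the same library. These ratios reuse the CD82 counts above, so they restate the difference on another scale and add no support to it. The ratio of CD82 to CD63 counts was 0.284, 0.272 and 0.271 in Vector-CM and 0.176, 0.217 and 0.206 in FGFBP1-CM. Against TSPAN5, CD82 counts stood at 0.973, 1.015 and 0.958 in Vector-CM and 0.688, 0.807 and 0.736 in FGFBP1-CM. In both ratios the groups were wholly separate and FGFBP1-CM replicate 1 was lowest. The gap was smaller against the tetraspanins that were themselves lower in FGFBP1-CM. CD82 over CD151 was 0.578 to 0.594 in Vector-CM and 0.471 to 0.503 in FGFBP1-CM, and CD82 over CD81 was 1.15 to 1.164 and 0.930 to 0.987. CD82 over CD9 was 0.795 to 0.882 in Vector-CM and 0.711 to 0.760 in FGFBP1-CM, again without overlap.

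**Figure D2:**
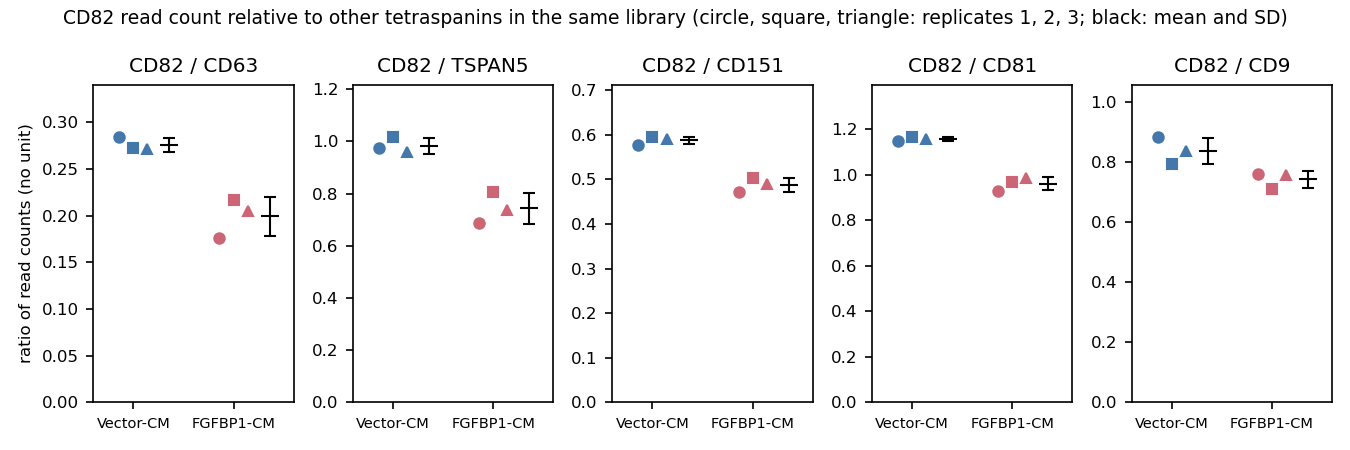
Ratio of the CD82 read count to that of CD63, TSPAN5, CD151, CD81 and CD9 in the same library (y axes from 0, no unit), with symbols for replicates 1 to 3 and black bars for mean and SD. In each panel the 3 FGFBP1-CM ratios lie below the 3 Vector-CM ratios, from 0.176 to 0.217 against 0.271 to 0.284 for CD63.

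CD9, CD81 and CD151 are classic cell surface partners of integrins, and CD9 and CD81 also bind the immunoglobulin-superfamily protein IGSF8. CD9 (ENSG00000010278, chromosome 12, 6199715 to 6238271, plus strand) was at 133, 158 and 145 CPM in Vector-CM and 109, 133 and 121 CPM in FGFBP1-CM. The spread within each group was wide, and the highest FGFBP1-CM library (replicate 2, 132.9 CPM) just exceeded the lowest Vector-CM library (replicate 1, 132.8 CPM). The mean of CD9 was 145 ± 12.6 CPM against 121 ± 11.9 CPM (SD, n = 3 each), a log2 fold change of −0.26 (SE 0.0836), and −0.19 without FGFBP1-CM replicate 1.

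CD81, the partner of claudin-1 in hepatitis C virus entry, was more uniform. CD81 (ENSG00000110651, chromosome 11, 2376177 to 2397419, plus strand) was at 102, 108 and 105 CPM in Vector-CM and 89.2, 97.5 and 92.5 CPM in FGFBP1-CM, so the groups did not overlap. Its log2 fold change was −0.17 (SE 0.0638). CD151 (ENSG00000177697, chromosome 11, 832843 to 839831, plus strand), which binds the laminin receptors α3β1 and α6β1, was at 203, 211 and 205 CPM in Vector-CM and 176, 188 and 186 CPM in FGFBP1-CM. Its groups did not overlap either, and its log2 fold change was −0.17 (SE 0.0605). Both genes are rich in G and C, at 64.9% and 62.6%, and log2 fold changes fell with GC content across 16401 genes (Spearman's rho −0.206, a description across genes). After correction for GC content and length the log2 fold change was −0.10 for CD81 and −0.11 for CD151, while that of CD82 (59.0% GC) was −0.40.

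CD63, a lysosomal and late endosomal tetraspanin and the cell surface receptor of TIMP1, had overlapping groups. CD63 (ENSG00000135404, chromosome 12, 55725323 to 55729707, minus strand) was at 413, 461 and 447 CPM in Vector-CM and 472, 436 and 444 CPM in FGFBP1-CM. Its means were 440 ± 25.04 and 451 ± 18.9 CPM (SD, n = 3 each), with a log2 fold change of 0.03 (SE 0.0666). FGFBP1-CM replicate 1, lowest of the 6 libraries in CD82, CD9, CD81, CD151 and TSPAN9, was the highest in CD63. The ratio of CD9 to CD81 counts overlapped between groups, at 1.30 to 1.47 in Vector-CM and 1.22 to 1.36 in FGFBP1-CM.

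The TspanC8 members TSPAN5 and TSPAN14 differed little. TSPAN5 (ENSG00000168785, chromosome 4, 98470367 to 98658629, minus strand) was at 120, 124 and 127 CPM in Vector-CM and 121, 117 and 124 CPM in FGFBP1-CM, a log2 fold change of −0.03 (SE 0.0609). TSPAN14 (ENSG00000108219, chromosome 10, 80454166 to 80533123, plus strand) was at 114, 123 and 117 CPM in Vector-CM and 117, 111 and 104 CPM in FGFBP1-CM, a log2 fold change of −0.09 (SE 0.0668). Levels overlapped between groups for both genes. Their client ADAM10 had an adjusted p of 0.695 in edgeR at a log2 fold change of −0.07 (SE 0.0854), with overlapping levels of 225 to 255 CPM in Vector-CM and 200 to 256 CPM in FGFBP1-CM. Summed over the 6 TspanC8 tetraspanins, the per-length level was 55.3 ± 0.871 FPKM in Vector-CM and 54.4 ± 0.421 FPKM in FGFBP1-CM (SD, n = 3 each).

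Of the remaining members, TSPAN9 was lower and TSPAN3 and TSPAN4 overlapped between groups. TSPAN9 (ENSG00000011105, chromosome 12, 3077355 to 3286564, plus strand), known from platelets and megakaryocytes, was at 76.8, 82.8 and 76.6 CPM in Vector-CM and 65.7, 68.9 and 68.0 CPM in FGFBP1-CM. No library of one group reached the other, and its log2 fold change was −0.22 (SE 0.0654), with −0.19 after the GC and length correction. TSPAN4 (ENSG00000214063, chromosome 11, 842808 to 867116, plus strand), a component of the migrasomes left behind by moving cells, begins 2976 bases after the end of CD151 on the same strand. It was at 32.2, 29.3 and 28.5 CPM in Vector-CM and 29.2, 28.996 and 26.4 CPM in FGFBP1-CM, a log2 fold change of −0.09 (SE 0.0841). The groups of CD151 were separate and those of its neighbor were not, although the difference between these genes was not tested. TSPAN3 (ENSG00000140391, chromosome 15, 77041404 to 77083984, minus strand) was at 176, 187 and 204 CPM in Vector-CM and 198, 187 and 197 CPM in FGFBP1-CM, a log2 fold change of 0.04 (SE 0.0681).

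All 10 genes passed the filter on low counts. In edgeR, 1 of the 10 (CD82) had an adjusted p under 0.05 and was lower, where 0.0658% of the 16707 tested genes were called lower, and 0 of the 10 were called higher, where 0.0539% were. DESeq2 also called CD82 alone among them, lower, where it called 1.57% of genes lower and 1.93% higher (3.5% in all), and limma on log2(FPKM + 1) called 0 of the 10, where it called 0.00599% of genes. Levels did not overlap and were lower in FGFBP1-CM for 4 of the 10 (CD82, CD81, CD151 and TSPAN9), where the share of all tested genes was 13.2%, and for 0 of the 10 they were higher, where it was 12.8% (26.0% in either direction). The log2 fold change was below 0 for 8 of the 10, against 49.3% of all tested genes, and its median was −0.13, against 0.00. Because the genes were chosen with this comparison known, nothing is read from these counts. The CD82 call was lost when any of the 3 Vector-CM libraries was left out, where 4 to 6 genes were called in all. It was also lost in limma on FPKM, where 1 gene was called.

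**Figure D3:**
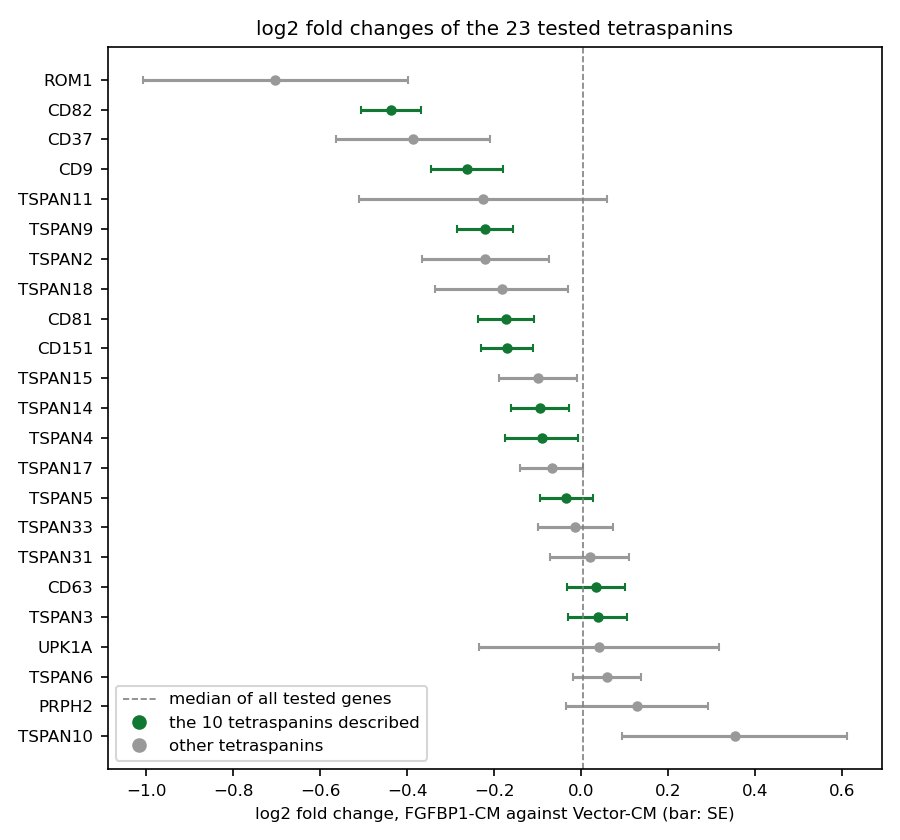
The log2 fold change of FGFBP1-CM against Vector-CM (x axis, bars are SE) for the 23 tetraspanins that could be tested, with the 10 genes described in full in green and the other 13 in gray. CD82 lies at −0.44, and the gene to its left, ROM1 at −0.70, has a bar several times wider.

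Setting levels side by side per gene length, CD63 was the most abundant tetraspanin in LX-2 cells. Over the 6 libraries its level was 184 ± 10.0 FPKM (SD), or 45.1% of the summed FPKM of the 33 family members. CD151 followed at 49.9 ± 2.78 FPKM and CD82 was the third at 26.0 ± 4.08 FPKM, and each of these was below the gene above it in all 6 libraries. TSPAN3 (22.7 ± 1.25 FPKM) and CD9 (22.7 ± 2.63 FPKM) had ranges that overlapped that of CD82 and each other, and TSPAN3 was below CD82 in 4 libraries and CD9 below TSPAN3 in 2. TSPAN5 came next at 16.4 ± 0.398 FPKM, below CD9 in every library. TSPAN17 (15.2 ± 0.868 FPKM) was below TSPAN5 in 5 of 6 libraries, and CD81 (13.4 ± 0.789 FPKM) was below TSPAN17 in each library although their ranges overlapped. TSPAN9 stood at 10.6 ± 0.828 FPKM, TSPAN14 at 6.37 ± 0.345 FPKM and TSPAN4 at 4.97 ± 0.324 FPKM. This order and the family shares depend on the gene lengths behind the FPKM. The lengths implied by counts and FPKM were 4039 bases for CD82 and 5829 for CD9, whose exons hold 4165 bases in GENCODE 29. In CPM, which ignores length, the Vector-CM mean of CD82 (121) was below those of TSPAN3 (189), CD9 (145) and TSPAN5 (124).

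The 10 genes took 87.0% to 88.0% of the summed family FPKM in every library. That sum was 412 ± 14.8 FPKM in Vector-CM and 402 ± 7.77 FPKM in FGFBP1-CM (SD, n = 3 each), with overlapping libraries. Within it the share of CD82 was 7.24%, 7.17% and 7.13% in Vector-CM and 5.11%, 5.87% and 5.71% in FGFBP1-CM. The share of CD63 was 42.6%, 43.9% and 43.9% in Vector-CM and 48.5%, 45.2% and 46.3% in FGFBP1-CM. Both shares separated the groups, in opposite directions, and shares of 1 sum are not independent of each other.

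**Figure D4:**
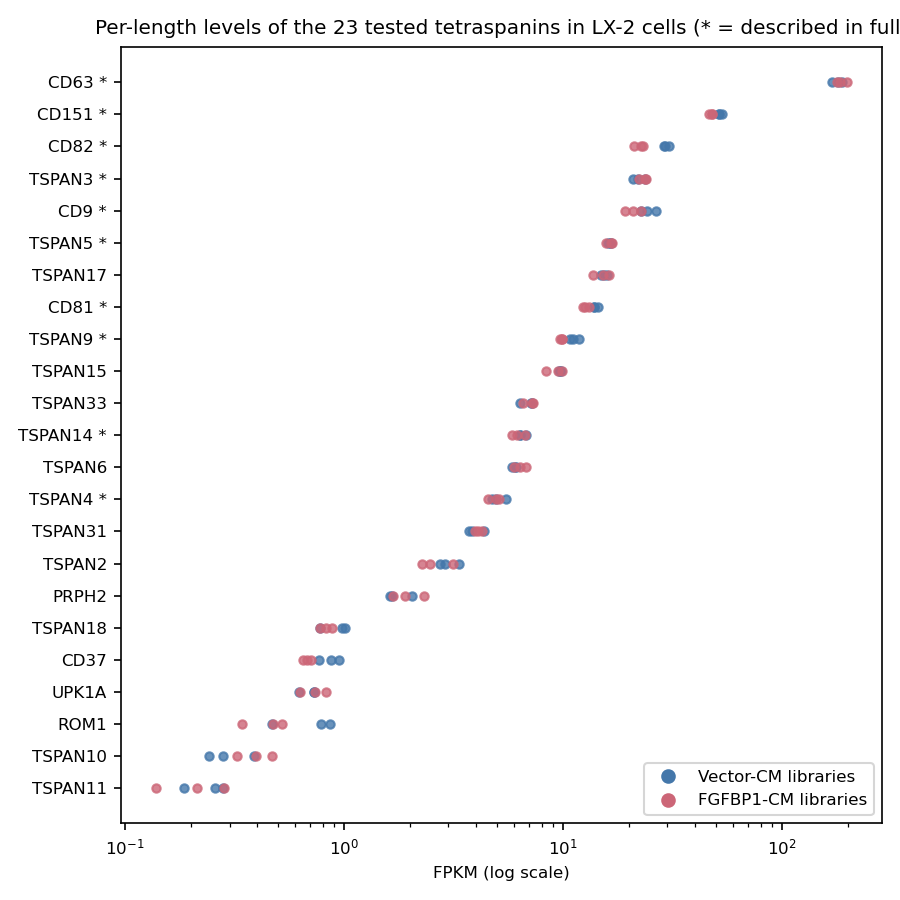
Level per gene length in FPKM (x axis, log scale) of the 23 testable tetraspanins in the 6 LX-2 libraries, ordered by mean, with asterisks on the 10 genes described in full. CD63 stands alone at 184 FPKM on average, and the CD82 points lie at 28.8 to 30.7 FPKM in Vector-CM and 21.0 to 23.3 FPKM in FGFBP1-CM.

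Among the 23 other tetraspanins, 13 were expressed well enough to test. Of these, 0 were called in edgeR, where 0.12% of all genes were, and 0 in DESeq2 or in limma on log2(FPKM + 1). An unadjusted p under 0.05 was found for 2, CD37 and ROM1, both lower, where 21.7% of all genes had such a p, 10.7% lower and 11.1% higher. CD37 was at −0.39 in log2 fold change (SE 0.177, adjusted p = 0.223, edgeR), from 45 to 71 counts a library. Its levels were lower without overlap, at 3.26 to 3.96 CPM in Vector-CM and 2.64 to 2.94 CPM in FGFBP1-CM. Of the 13, 1 was lower and 0 were higher without overlap, where 13.2% and 12.8% of all tested genes were. Of the 13, 8 were below 0 and 5 above, with a median log2 fold change of −0.07. The 3 most abundant were all TspanC8 members: TSPAN17 (log2 fold change −0.07, SE 0.0729, adjusted p = 0.623, edgeR), TSPAN15 (−0.10, SE 0.0903, adjusted p = 0.550) and TSPAN33 (−0.01, SE 0.0860, adjusted p = 0.945), and all had overlapping groups. TSPAN33 turned to 0.02 when only library size was used for scaling. TSPAN8, a tetraspanin of colorectal epithelium, had at most 3 counts in a library.

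The 25 genes whose products bind tetraspanins at the membrane were all tested. TIMP1, a ligand of CD63 and inhibitor of matrix metalloproteinases, was the 1 gene among them past the threshold in edgeR. TIMP1 (ENSG00000102265, chromosome X, 47582313 to 47586789, plus strand) was at 320, 352 and 332 CPM in Vector-CM and 253, 258 and 262 CPM in FGFBP1-CM, from 4114 to 5736 counts. The groups were well separated, and the log2 fold change was −0.38 (SE 0.0623, adjusted p = 0.0465, edgeR). The call was lost when any of the 3 Vector-CM libraries was left out (adjusted p 0.0762 to 0.242 in edgeR), and also with library size only (0.0563) or a minimum mean of 1 CPM (0.0543). TIMP1 is also on the stellate marker list, whose summed level was lower in the same libraries.

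DESeq2 called 5 partner genes lower, ICAM1, IFITM1, IGSF8, ITGA5 and TIMP1, where its share over all genes is the 1.57% given above. Of the 25, 19 were below 0 in log2 fold change, 13 were lower without overlap, where 13.2% of all tested genes were, and 2 (MET and PRKCA) were higher without overlap, where 12.8% were. Values ran from −1.07 for the adhesion receptor VCAM1 to 0.22 for MET. The median was −0.13, and −0.15 after the GC and length correction. IGSF8, which binds CD9, CD81 and CD82 directly, was at 48.0 to 50.4 CPM in Vector-CM and 35.9 to 42.1 CPM in FGFBP1-CM, but its log2 fold change of −0.32 (SE 0.0773) had an adjusted p of 0.0680 in edgeR. The most abundant partners after TIMP1 were CD44, the hyaluronan receptor, at −0.04 in log2 fold change (SE 0.0685, adjusted p = 0.743, edgeR), and ITGB1, the integrin β1 chain, at −0.19 (SE 0.0781, adjusted p = 0.178). ITGB1 levels did not overlap, at 1342 to 1373 CPM in Vector-CM and 1043 to 1271 CPM in FGFBP1-CM. The α chains that CD151 holds were at −0.13 (ITGA3, adjusted p = 0.254) and 0.00 (ITGA6, adjusted p = 0.978). MET, the hepatocyte growth factor receptor that CD82 is known to restrain, was at 0.22 (adjusted p = 0.1002, edgeR). Partner genes named here other than TIMP1, CD44 and ITGB1 lie outside the rule for named genes and were chosen after their values were seen, as were CD37, ROM1 and TSPAN8 above.

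**Figure D5:**
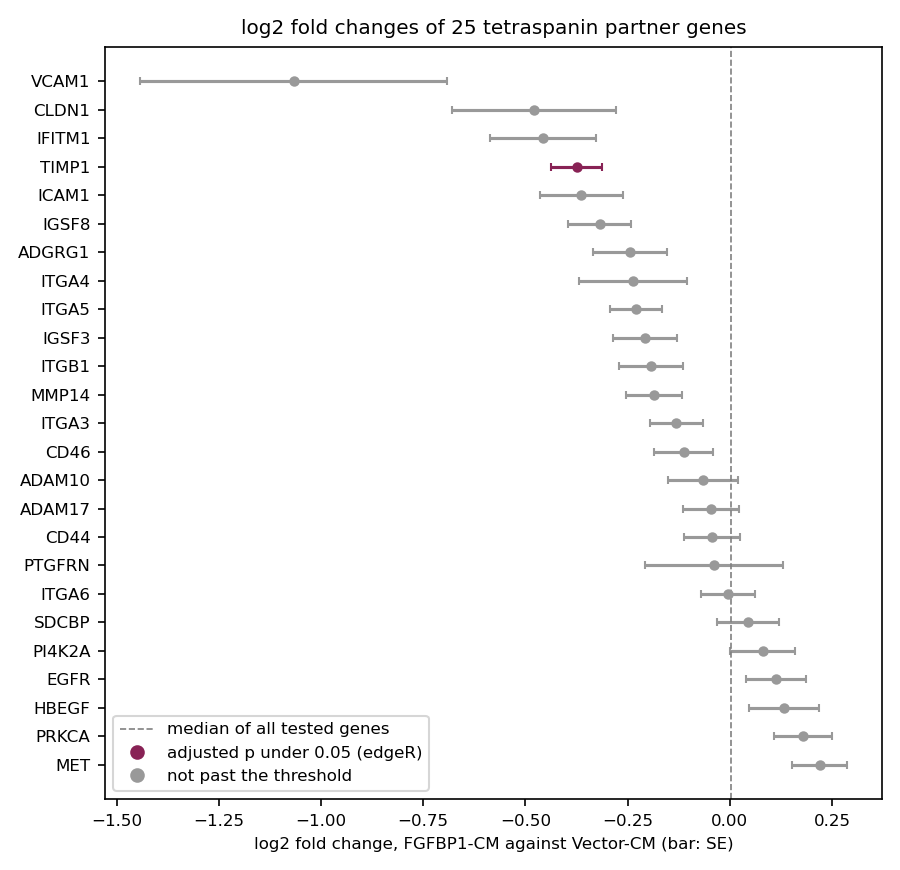
The log2 fold change of FGFBP1-CM against Vector-CM (x axis, bars are SE) for the 25 partner genes, with genes past the adjusted threshold in color and the dashed line at the median of all tested genes. TIMP1, at −0.38, is the only colored point, 19 of 25 genes lie below 0, and MET is highest at 0.22.

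The 10 ADAM10 substrates included 9 that were tested, of which 0 were called in edgeR, DESeq2 or limma on FPKM. An unadjusted p under 0.05 was found for 4, all lower (APP and, chosen after their values were seen, NOTCH1, NOTCH3 and JAG1), where 10.7% of all genes had such a p and were lower, and 7 were below 0. Named by abundance, the prion protein gene PRNP was at 0.15 in log2 fold change (SE 0.0844, adjusted p = 0.322, edgeR), APP at −0.16 (SE 0.0691, adjusted p = 0.210) and NOTCH2 at 0.00 (SE 0.0647, adjusted p = 0.989). APP levels were lower without overlap, at 766 to 810 CPM against 656 to 753 CPM, where 13.2% of all tested genes were.

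The 20 vesicle machinery genes were all tested and 0 were called in edgeR, DESeq2 or limma on FPKM. Their median log2 fold change was −0.01, with 12 below 0 and 8 above, and an unadjusted p under 0.05 was found for 1 in each direction, SDC4 lower and, chosen after its value was seen, VPS4B higher. Of all tested genes, 10.7% had such a p and were lower, and 11.1% were higher. CHMP4B, a subunit of the ESCRT-III complex that cuts vesicle necks, was at −0.02 (SE 0.0649, adjusted p = 0.890, edgeR) and turned to 0.01 with library size only. FLOT1, a scaffold of membrane rafts, was at −0.06 (SE 0.0634, adjusted p = 0.589). The syndecan SDC4 was lower without overlap, at 211 to 232 CPM against 175 to 204 CPM, where 13.2% of all tested genes were. It missed the threshold at −0.24 in log2 fold change (SE 0.0713, adjusted p = 0.0969, edgeR).

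The 9 genes known to act on CD82 transcription or turnover were also all tested, and 0 were called in edgeR, DESeq2 or limma on FPKM. JUNB, an AP-1 subunit that activates CD82 together with p53, was at 46.2, 48.0 and 42.4 CPM in Vector-CM and 30.0, 41.2 and 36.5 CPM in FGFBP1-CM. Its groups did not overlap, and its log2 fold change was −0.35 (SE 0.103, adjusted p = 0.0961, edgeR). The known repressors of CD82, β-catenin and reptin, were at 0.11 (CTNNB1, SE 0.0669, adjusted p = 0.338) and 0.16 (RUVBL2, SE 0.0808, adjusted p = 0.282), both higher without overlap. For RUVBL2 the gap was slight, 63.7 to 65.8 CPM in Vector-CM against 66.0 to 81.5 CPM in FGFBP1-CM. An unadjusted p under 0.05 was found for 1 of the 9, JUNB, where 10.7% of all genes had such a p and were lower. Levels were lower without overlap for 1 of the 9 and higher for 2, where 13.2% and 12.8% of all tested genes were.

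Among 15032 genes with a mean of at least 1 CPM, the 5 whose profile over the 6 libraries was most like that of CD82, by the root mean square difference of mean-centred log2 CPM, were PABIR3 (0.0134), RGCC (0.0314), ASS1 (0.0339), TMOD1 (0.0466) and TGFB1 (0.0482). TGFB1 was at 114, 118 and 117 CPM in Vector-CM and 84.6, 98.2 and 90.8 CPM in FGFBP1-CM, and ASS1 at 18.9, 19.5 and 19.7 CPM against 12.7, 15.1 and 13.9 CPM. As in CD82, FGFBP1-CM replicate 1 was lowest and replicate 2 was the highest of the FGFBP1-CM libraries. These genes were found by their likeness in the same 6 libraries and have no test. CD9 was the closest tetraspanin of the 10, at rank 296, followed by TSPAN9 (524), CD81 (993) and CD151 (1035), and CD63 and TSPAN3 were the farthest, at ranks 7264 and 7477.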

How the data were processed

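RNA-seq was performed on 6 libraries of LX-2 cells, 3 per group, with groups as the labels give them. Reads were aligned by the authors with HISAT2 2.0.5, and the raw read counts they deposited per gene came from featureCounts 1.5.0-p3. The authors also deposited FPKM values. The submitters' processing notes list hg18, with no role given, and the strand setting is not given in the sources used here. The methods describe poly(A) selection as well as ribosomal RNA removal. The table also holds annotation and the authors' own comparison columns, which were not used.

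The counts entered edgeR 4.0.16 under R 4.3.3 (filterByExpr, TMM, quasi-likelihood F-test, Benjamini-Hochberg over 16707 genes, threshold 0.05). CPM is the count scaled by the TMM-adjusted library total, and the SE of a log2 fold change is its absolute value over the root of F. The 10 tetraspanins and the gene lists were chosen with earlier results of these data known. Named genes were the 10 members, each list's called genes and its 3 with the highest mean FPKM, and the 5 profiles nearest to CD82, compared as log2(CPM + 0.5). Coordinates are from GENCODE 29 (GRCh38), which held 96.3% of the Ensembl identifiers, and need not match the counting build.

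The alternatives tried were scaling by RLE or by library size only, a filter of 1 count or of 1 CPM on average, DESeq2 1.42.0, limma 3.58.1 on log2(FPKM + 1) and log2(FPKM + 0.1), a replicate block, loess offsets for GC content and length (span 0.3, 98.2% of tested genes), and leaving out each library. P-values measure the spread between these libraries only. Levels rest on 14003780 to 18508113 counts a library, and an exact permutation test of 3 against 3 cannot go below 0.1, so none was run. The main edgeR fit and the edgeR GC and length correction were tested on simulated data, and the other fits were not. In the main fit 79.7% of 200 simulated 2-fold changes were recovered on average, with 5.9% false calls. Smaller changes, such as that of CD82, were not simulated. No libraries were merged, since same-group libraries differed by more than sampling noise.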

Additional observations from a re-analysis of the deposited data

How the results depend on the processing

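The number of genes called depended strongly on the processing. Against 20 of 16707 genes (9 higher, 11 lower), RLE scaling gave 38, no filter beyond 1 count gave 1382, a minimum mean of 1 CPM gave 11, DESeq2 585 and limma on log2(FPKM + 1) or log2(FPKM + 0.1) 1 each. GC and length correction gave 107 (53 higher, 54 lower), the replicate block 90, and the correction with the replicate block 177 (59 higher, 118 lower). Leaving out 1 library gave 4 to 883, with 4 without Vector-CM replicate 2 or 3, 6 without Vector-CM replicate 1, 72 without FGFBP1-CM replicate 1, 402 without FGFBP1-CM replicate 3 and 883 without FGFBP1-CM replicate 2. The cause of these shifts was not tested.

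The 1 partner gene called became 0 with library size only, with the 1 CPM minimum and in both limma fits, 6 with no filter, 5 in DESeq2 and 3 when the replicate block joined the GC and length correction, and ranged from 0 to 4 when 1 library was left out. With no filter, 1 ADAM10 substrate, 2 vesicle machinery genes and 1 CD82 regulator were called. Leaving out 1 library gave 0 to 2 ADAM10 substrates, 0 to 1 vesicle machinery genes and 0 to 1 CD82 regulators. The other tetraspanins stayed at 0 in all 16 alternatives.

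CD82 was lower in all 16 alternatives, at log2 fold changes from −0.48 (leaving out FGFBP1-CM replicate 2) to −0.38 (leaving out FGFBP1-CM replicate 1), and passed the threshold in 11 of them, which describes the fits and is no test of a gene chosen with this comparison known. It missed the threshold when any of the Vector-CM libraries was left out and in the limma fits. Those fits called 1 to 6 genes each, and the 11 in which CD82 passed called 11 to 1382 genes each. CD9 passed in 2, the fits that called the most genes (1382 with no filter and 883 without FGFBP1-CM replicate 2). The other members passed in 0. Of the 160 member values under alternatives, 152 kept their direction and moved by less than 1 SD, 6 moved further (CD81, CD151 and TSPAN5 in both GC and length corrections) and 2 changed sign. CD63 was −0.00916 and TSPAN3 −0.00892 without Vector-CM replicate 1, within leave-one-out ranges of −0.00916 to 0.0686 and −0.00892 to 0.0958. Among the other named genes, sign changes were seen for TSPAN33 (0.0199 with library size only, 0.0176 and 0.0199 in limma, 0.00785 and 0.00731 in the GC and length corrections without and with the replicate block), CHMP4B (0.0142 with library size only, 0.0127 and 0.0129 in limma) and NOTCH2 (−0.01499 and −0.01502 in the corrections), and in leave-one-out fits for TSPAN33 (−0.0631 to 0.0217), CHMP4B (−0.0428 to 0.0180), CD44 (−0.0708 to 0.00105) and NOTCH2 (−0.0190 to 0.0395).

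Whether replicate numbers pair the samples could not be settled. Deviations of same-numbered libraries correlated at −0.118, −0.0220 and 0.148 over 15033 genes, and only the replicate 3 libraries correlated best with their own number. With 3 libraries a group these deviations constrain each other, so they cannot exclude pairing. The labels give the numbers no meaning, so the block is given by its counts above. No scaling moved the median of all genes by more than 0.034. Depth did not limit the members, whose counts ranged from 405 to 8948 a library, whereas 10 of the 23 other tetraspanins had too few counts to test.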
